A study of Mus musculus with 12 samples.

Results

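Slc7a11, Slc3a2, Gclc, Gclm, Gss and Gsr are the 6 genes through which a cell takes up cystine, builds glutathione from it and returns oxidised glutathione to its reduced form. They were taken by symbol from the 18876 genes listed in RNA-seq of mouse oligodendrocyte progenitor cells, the glial precursors of myelinating oligodendrocytes. All 6 were listed in each of the 12 libraries and passed the filter on low counts, as did 13967 genes in all. The cells were primary cultures from wild-type brain, kept for 12 h in 1 of 4 conditions with 3 libraries each. The first received 50 µM hemin, 10 ng/mL interleukin-10 (IL-10) and 2.5 µM stattic, and is called the stattic group. The second received 50 µM hemin with 10 ng/mL IL-10 and is called the IL-10 group, the third received 50 µM hemin alone, and the last received the DMSO vehicle. Hemin carries the ferric iron of oxidised heme, STAT3 relays the signal of the cytokine IL-10 inside the cell, and stattic inhibits STAT3. No group received IL-10 or stattic without hemin. The labels do not say whether libraries of a group came from separate cultures or animals, so the p-values measure the spread between these libraries, which may be technical.

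Cystine enters the cell in exchange for glutamate through system xc-, a pair of proteins in which SLC7A11 (xCT) carries the amino acids and SLC3A2 (4F2hc, CD98hc) is the heavy chain that brings it to the membrane. Cystine is reduced to cysteine inside the cell. Glutamate-cysteine ligase joins cysteine to glutamate in the rate-limiting step, with GCLC as the catalytic subunit and GCLM as the modifier subunit. Glutathione synthetase (GSS) adds glycine, and glutathione reductase (GSR) uses NADPH to reduce the disulfide that forms when glutathione is spent against peroxides. In many cells the genes of this route respond to NRF2, which binds antioxidant response elements with a small MAF protein and competes there with the heme-binding repressor BACH1. Slc7a11 and Slc3a2 are also known targets of ATF4, the transcription factor of the integrated stress response. Oligodendrocyte progenitors are known to be sensitive to loss of cystine supply and glutathione.

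The start-site windows of 3 of the genes are shown because elements of both kinds were searched for in them. RefSeq windows on build GRCm38.p6, from 250 bases before to 50 bases after an annotated start, were held for Slc7a11, Slc3a2, Gclm and Gss, and not for Gclc and Gsr. They are written 5′ to 3′ along the gene's strand, with matches in capitals. The window of Slc7a11 is chr3:50443564-50443863 on the minus strand, that of Slc3a2 is chr19:8713848-8714147 on the minus strand, and that of Gclm is chr3:122245307-122245606 on the plus strand.
Slc7a11: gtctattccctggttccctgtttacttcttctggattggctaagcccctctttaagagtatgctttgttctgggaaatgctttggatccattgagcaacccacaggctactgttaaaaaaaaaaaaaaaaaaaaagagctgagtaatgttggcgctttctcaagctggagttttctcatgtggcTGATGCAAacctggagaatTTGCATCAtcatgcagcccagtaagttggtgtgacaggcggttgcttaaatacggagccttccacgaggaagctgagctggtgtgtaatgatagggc
Slc3a2: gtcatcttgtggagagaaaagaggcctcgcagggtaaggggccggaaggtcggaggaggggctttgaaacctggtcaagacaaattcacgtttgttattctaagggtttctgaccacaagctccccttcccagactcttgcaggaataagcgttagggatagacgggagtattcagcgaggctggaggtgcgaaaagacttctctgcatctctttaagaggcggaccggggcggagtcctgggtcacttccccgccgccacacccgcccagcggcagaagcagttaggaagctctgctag
Gclm: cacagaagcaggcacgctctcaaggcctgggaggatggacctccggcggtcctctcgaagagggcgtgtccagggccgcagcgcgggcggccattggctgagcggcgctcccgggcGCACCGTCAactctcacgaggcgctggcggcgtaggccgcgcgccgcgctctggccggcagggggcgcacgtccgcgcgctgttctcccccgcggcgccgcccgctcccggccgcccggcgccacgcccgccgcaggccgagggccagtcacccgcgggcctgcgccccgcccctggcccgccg
The core of the antioxidant response element was searched as TGACNNNGC and the C/EBP-ATF element, to which ATF4 binds, as TGATGNAA, each on both strands. The Slc7a11 window held TGATGNAA 2 times, as TGATGCAA at bases 185 to 192 and on the other strand at bases 204 to 211, where the printed strand reads TTGCATCA. The 2 matches lay 11 bases apart and face each other. Of the 32851 windows in the table, 3.97% held TGATGNAA and 0.07% held it at least 2 times. The Gclm window held TGACNNNGC 1 time, on the minus strand at bases 117 to 125, where the printed strand reads GCACCGTCA. That motif was in 12.4% of all windows. Neither motif was in the windows of Slc3a2 and Gss. Other starts of these genes were not searched. The windows of Slc7a11 and Slc3a2 lie inside the annotated spans of these minus-strand genes, which reach chr3:50499087 and chr19:8723369. No match of one motif overlapped a match of the other. A match describes the letters in the window only.

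Slc7a11, the cystine carrier, showed the widest range among the 6 genes as a ratio of highest to lowest library. Its level was 155.3, 39.97 and 7.77 FPKM (the authors' deposited value, a fragment count divided by transcript length and by library size) in stattic libraries 1, 2 and 3. It was 158.15, 97.05 and 17.25 FPKM in the IL-10 group, 81.52, 81.03 and 11.86 FPKM with hemin alone, and 1.75, 3.71 and 1.92 FPKM in vehicle. Each of the 9 libraries that received hemin lay above all 3 vehicle libraries, and library 3 was the lowest of its group in all 3 hemin conditions. Slc3a2, the heavy chain, was the most abundant of the 6 in every library. Its level was 701.15, 416.62 and 260.0 FPKM in the stattic group, 884.83, 604.01 and 271.92 FPKM in the IL-10 group, 565.82, 527.02 and 190.7 FPKM with hemin, and 62.81, 86.86 and 55.38 FPKM in vehicle. The groups that received hemin again stood wholly above vehicle, and again library 1 was highest and library 3 lowest in each of them.

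Gclc, the catalytic subunit, reached 123.24, 87.32 and 51.31 FPKM in the stattic group and 122.58, 114.72 and 98.31 FPKM in the IL-10 group. It reached 119.23, 136.61 and 171.02 FPKM with hemin alone, against 22.88, 30.87 and 29.52 FPKM in vehicle. All 9 hemin-treated libraries lay above vehicle. With hemin alone its order was the reverse of that of Slc7a11 and Slc3a2, with library 3 highest and library 1 lowest. Gclm, the modifier subunit, was at 265.76, 81.7 and 42.0 FPKM in the stattic group, 239.99, 198.92 and 60.2 FPKM in the IL-10 group, 211.67, 155.46 and 38.59 FPKM with hemin, and 20.42, 22.5 and 18.17 FPKM in vehicle. It too was above vehicle in all 9 libraries, with library 1 highest and library 3 lowest in each hemin condition.

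Gss, which finishes glutathione, was at 51.52, 17.89 and 23.57 FPKM in the stattic group and 40.11, 29.42 and 15.76 FPKM in the IL-10 group. It was at 41.76, 22.9 and 13.17 FPKM with hemin alone, against 17.49, 19.16 and 17.41 FPKM in vehicle. Of the 9 hemin-treated libraries, 6 were above the vehicle range, 1 inside it and 2 below it. Gsr, which recycles glutathione, was at 76.27, 30.06 and 29.33 FPKM in the stattic group, 81.84, 69.42 and 34.83 FPKM in the IL-10 group, 72.05, 39.73 and 22.03 FPKM with hemin, and 23.61, 23.87 and 26.07 FPKM in vehicle. It exceeded all 3 vehicle libraries in 8 of 9 hemin-treated libraries and was below them in hemin library 3.

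**Figure D1:**
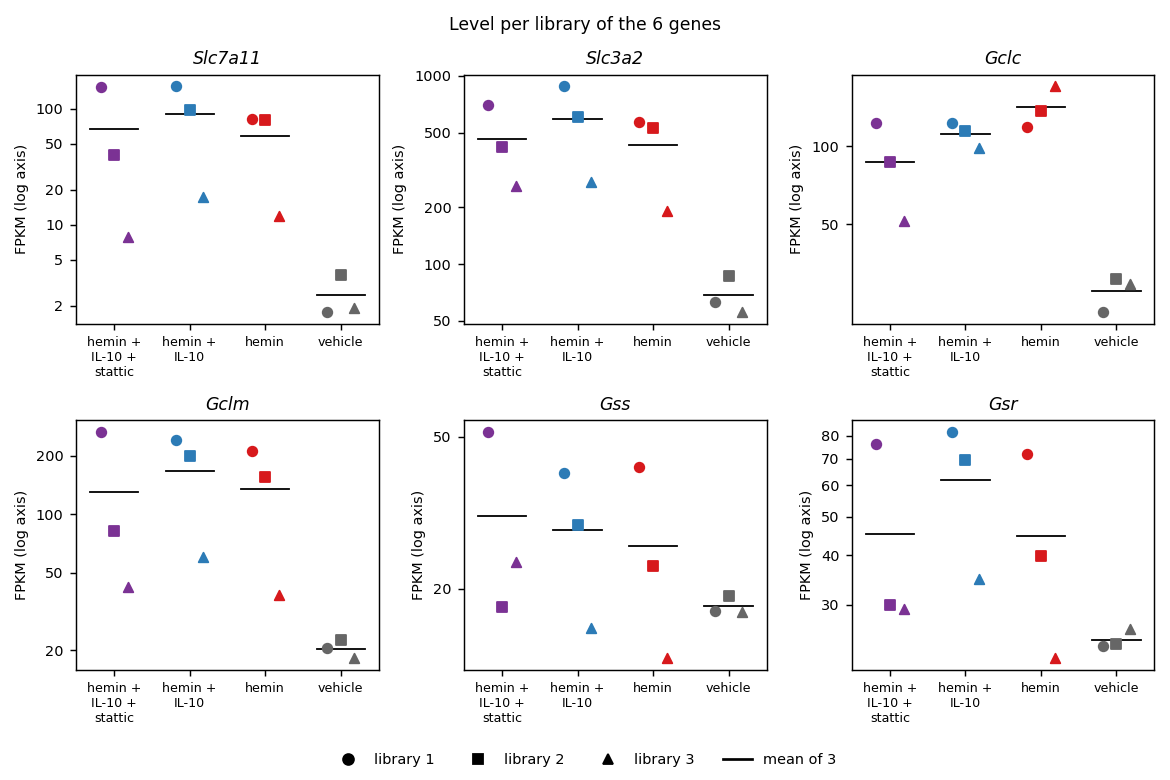
FPKM of each gene (log axis) in the 12 libraries, by group; symbols mark the library number, points are single libraries and bars are means of 3. Slc7a11, Slc3a2, Gclc and Gclm are above vehicle in all 9 libraries that received hemin, while Gss and Gsr reach into or below the vehicle range, and library 3 is the lowest of its group in most hemin panels but the highest for Gclc with hemin alone.

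FPKM is scaled for length, so levels can be set beside each other between genes. Differences between libraries in how counts depend on length, given below, are not removed by this scaling. With hemin alone the mean levels ran from Slc3a2 (428 ± 206 FPKM, SD, n = 3 here and below) through Gclc (142 ± 26.4 FPKM), Gclm (135 ± 88.3 FPKM), Slc7a11 (58.1 ± 40.1 FPKM) and Gsr (44.6 ± 25.4 FPKM) to Gss (25.9 ± 14.5 FPKM). In vehicle the order was Slc3a2 (68.4 ± 16.5 FPKM), Gclc (27.8 ± 4.28 FPKM), Gsr (24.5 ± 1.35 FPKM), Gclm (20.4 ± 2.17 FPKM), Gss (18.0 ± 0.988 FPKM) and Slc7a11 (2.46 ± 1.09 FPKM). Slc7a11 was thus the least abundant of the 6 in vehicle and stood above Gss and Gsr in the hemin mean, although in hemin library 3 it was below both. In vehicle the libraries of Gclc and Gsr overlapped, as did those of Gclm and Gss. With hemin alone, Slc3a2 stood above the other 5 genes in each library, and the ranges of Gclc and Gclm and those of Slc7a11, Gsr and Gss overlapped.

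The spread between libraries differed by gene as well as by group. In vehicle the coefficient of variation of FPKM was 5.48% for Gss, 5.51% for Gsr, 10.6% for Gclm, 15.4% for Gclc, 24.1% for Slc3a2 and 44.1% for Slc7a11. Under hemin alone it was 18.5% for Gclc, against 48.2% for Slc3a2, 56.0% for Gss, 56.9% for Gsr, 65.3% for Gclm and 68.9% for Slc7a11. The widest spread was that of Slc7a11 in the stattic group, where the highest library was 20.0 times the lowest. The lowest was stattic library 3, which also had the strongest trend of counts with transcript length, given below. Hemin library 1, with the next strongest trend (-0.358), was the highest of its group for Slc7a11. Library 3 was also the lowest with hemin alone (trend -0.127) and in the IL-10 group (-0.18). The part of length in this spread was not tested. Hmox1, the heme oxygenase gene that heme exposure is known to induce, also had library 1 highest and library 3 lowest in each hemin condition, with 6321, 2283 and 1608 FPKM in the stattic group, 6890, 4675 and 1452 FPKM in the IL-10 group, 5325, 4084 and 1740 FPKM with hemin, and 27.09, 39.45 and 17.65 FPKM in vehicle.

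In the libraries as a whole, expected counts (reads per gene as estimated by the authors' counter) summed to between 9404448 and 10266653, over 15051 to 16899 listed genes, so that counting error is small for all 6 genes. Replicates of a group differed by more than counting noise, with a chi-square per degree of freedom of 14.6 to 176. Most libraries that received hemin had relatively more counts on short transcripts than vehicle, with a Spearman correlation across genes between length and the difference from the vehicle mean of -0.607 in stattic library 3 and -0.358 in hemin library 1. It was -0.18 to -0.067 in the other 7 hemin-treated libraries and -0.075 to 0.108 in vehicle. Summed levels of 8 progenitor markers were 826 to 1830 CPM (counts relative to library size) in the stattic group, 1450 to 2440 CPM in the IL-10 group, 1830 to 2670 CPM with hemin and 4570 to 6040 CPM in vehicle, and all 8 were detected in every group. Oligodendrocyte markers summed to 1450 to 11000, 1140 to 2440 and 310 to 1760 CPM in these 3 hemin groups and to 2260 to 6380 CPM in vehicle. Astrocyte markers summed to 1070 to 3890, 867 to 2420 and 1930 to 2890 CPM, against 2250 to 6280 CPM in vehicle.

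Hemin alone against vehicle asks how the cells' glutathione route stands after exposure to heme. Slc7a11, Slc3a2, Gclc and Gclm rose, that is 4 of 6 genes, and none fell. Of all 13967 genes tested, 11.7% were called higher and 9.15% lower in this comparison, at a Benjamini-Hochberg adjusted p under 0.05 over all genes in the quasi-likelihood test of edgeR, which gave the p-values of all comparisons. In CPM, the 3 hemin libraries lay wholly above the 3 vehicle libraries for 4 of 6 genes, as they did for 25.6% of all genes, and wholly below for none, beside 24.5%. The median log2 change of the 6 genes was 2.58, beside 0.031 over all genes tested. The members had been chosen with earlier results of these data known, so their share called is a description.

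Of the uptake pair, Slc7a11 had the highest log2 change of the 6 genes and the widest interval. It was 26.2-fold higher with hemin, a log2 change of 4.71 (SE 1.13, 95% confidence interval 2.25 to 7.17, adjusted p = 0.0139). Its call was lost without vehicle library 1 (adjusted p = 0.0612) or vehicle library 3 (0.0591), with changes of 4.52 and 4.55. Slc3a2 was 6.64-fold higher, a log2 change of 2.73 (SE 0.55, interval 1.53 to 3.93, adjusted p = 0.00643), and its call held in each alternative run. In bulk RNA, more cells of a type and more RNA per cell cannot be told apart. Summed markers of other cell types also moved: microglia and macrophage markers (13 genes) summed to 43.1 to 177 CPM with hemin against 8.38 to 33.6 CPM in vehicle, with 3 of 12 tested called higher. Fibroblast and vascular markers (8 genes) summed to 51.5 to 163 CPM against 5.03 to 7.98 CPM, with 5 of 7 tested called higher. Neuron markers (8 genes) summed to 154 to 309 CPM against 84.0 to 171 CPM, ranges that overlapped, with 2 of 8 called higher. Of all genes tested, 11.7% were called higher with hemin. No marker of these lists was at 0 over a whole group. The microglia sum was 65.1 to 170 CPM in the stattic group and 15.0 to 43.9 CPM in the IL-10 group, of which the IL-10 range overlapped vehicle. The fibroblast and vascular sum was 33.1 to 66.5 CPM in the stattic group and 30.1 to 59.3 CPM in the IL-10 group, and the neuron sum 187 to 290 CPM and 174 to 214 CPM, all above vehicle. The neuron markers called were Snap25 and Nefl in each hemin group. The median log2 change of the neuron list was 0.25 in the stattic group, -0.55 in the IL-10 group and 0.81 with hemin. In the IL-10 group the sum thus rose while the median of the list fell. Of the 8 progenitor markers, 3 were called lower in the stattic group, 5 in the IL-10 group and 2 with hemin (Olig2 and Sox10), and none higher. Over all genes, 10.2%, 8.81% and 9.15% were called lower in these groups. The median log2 change of the progenitor markers was -1.66, -1.83 and -1.62 in the same order. No oligodendrocyte marker was called, and of the astrocyte markers Slc1a2 alone, lower in each group. The part of these cell types in the changes was not tested.

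Of the ligase subunits, Gclc gave the most precise value, 5.42-fold higher with hemin, a log2 change of 2.44 (SE 0.28, interval 1.83 to 3.05, adjusted p = 0.000333). Gclm was 7.32-fold higher, a log2 change of 2.87 (SE 0.75, interval 1.25 to 4.49, adjusted p = 0.0192). The Gclc call held in each alternative, while the Gclm call was lost without any 1 of the 3 vehicle libraries, hemin library 1 or hemin library 2, with adjusted p of 0.0575 to 0.0722 and log2 changes of 2.37 to 2.95. Gss and Gsr did not pass. The log2 change of Gss was 0.66 (interval -0.39 to 1.7, adjusted p = 0.358) and that of Gsr was 1.0 (interval -0.04 to 2.03, adjusted p = 0.156). Both intervals hold 0 as well as rises of more than 2-fold. Without hemin library 1 and stattic library 3, which had the strongest length trend, the log2 changes were 4.36 for Slc7a11, 2.46 for Slc3a2, 2.53 for Gclc, 2.37 for Gclm, 0.1 for Gss and 0.44 for Gsr, with the same 4 genes called. Without the 4 libraries numbered 3, an alternative added after seeing the data, they were 5.04, 2.97, 2.37, 3.24, 0.96 and 1.38 in the same order of genes, again with the same 4 called.

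**Figure D2:**
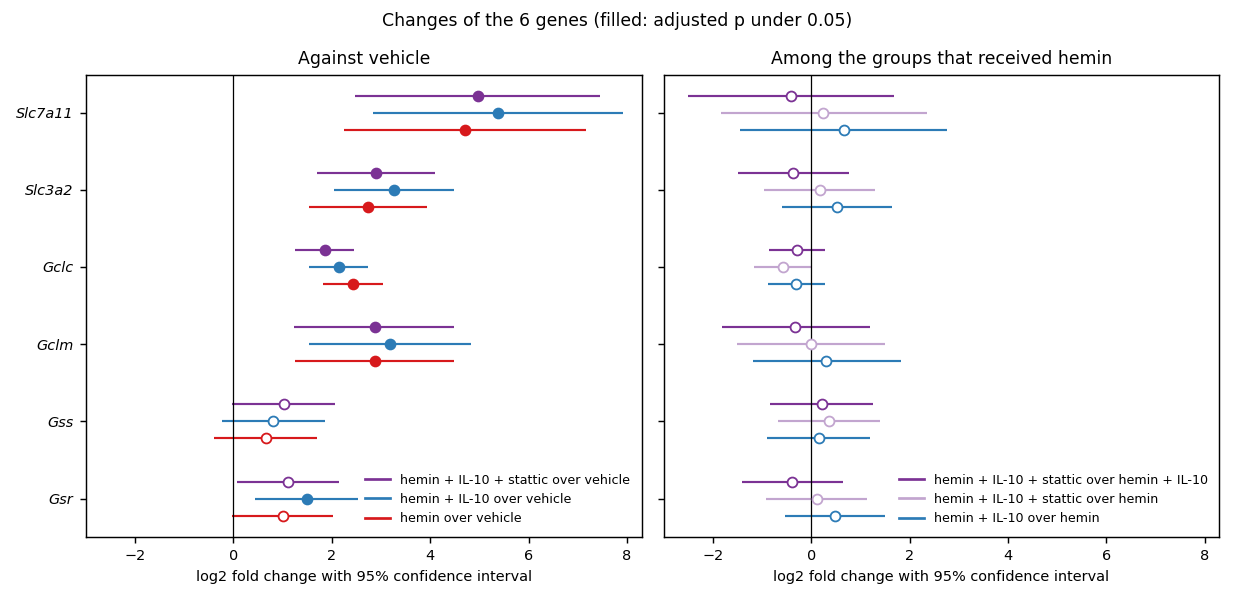
Log2 fold changes with 95% confidence intervals from the edgeR fit, against vehicle (left) and among the groups that received hemin (right); filled points have an adjusted p under 0.05. Slc7a11, Slc3a2, Gclc and Gclm are filled in all 3 comparisons with vehicle, Gsr only for the IL-10 group and Gss in none, and all points on the right are open.

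Hemin with IL-10 against vehicle and the stattic group against vehicle use the same 3 vehicle libraries as hemin alone, so the comparisons are not independent and their values are given side by side. In the stattic group 4 of 6 genes were called higher and none lower, where 14.7% of all genes were called higher and 10.2% lower. In the IL-10 group 5 of 6 were called higher and none lower, where 12.1% of all genes were called higher and 8.81% lower. The 3 IL-10 libraries lay wholly above vehicle in CPM for 5 of 6 genes, beside 24.9% of all genes, and wholly below for none, beside 24.4%. Slc7a11 changed by 4.97 on the log2 scale in the stattic group (adjusted p = 0.0107) and by 5.37 in the IL-10 group (adjusted p = 0.00908), which are 31.2-fold and 41.4-fold rises. Slc3a2 changed by 2.9 (adjusted p = 0.00462) in the stattic group and 3.26 (adjusted p = 0.00318) in the IL-10 group. Gclc changed by 1.86 (adjusted p = 0.00156) and 2.14 (adjusted p = 0.000818) in these 2 groups. Gclm changed by 2.87 (adjusted p = 0.0176) in the stattic group and 3.18 (adjusted p = 0.0136) in the IL-10 group.

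Glutathione reductase was called higher in the IL-10 group, where Gsr was 2.8-fold above vehicle, a log2 change of 1.49 (SE 0.48, interval 0.44 to 2.53, adjusted p = 0.0457). The call sat near the threshold: leaving out any 1 of vehicle libraries 1 to 3, hemin library 2, or IL-10 library 1 or 2 gave adjusted p of 0.0635 to 0.146, and 6 other settings gave 0.052 to 0.112. In the stattic group the log2 change of Gsr was 1.11 (interval 0.07 to 2.14, adjusted p = 0.107). Gss changed by 1.02 in the stattic group (interval -0.04 to 2.07, adjusted p = 0.142) and by 0.81 in the IL-10 group (interval -0.24 to 1.86, adjusted p = 0.255). In CPM the stattic libraries of Gss and of Gsr lay above all vehicle libraries, so that 6 of 6 genes did, beside 21.5% of all genes wholly above and 19.6% wholly below. In FPKM the lowest Gss library of the stattic group lay inside the vehicle range. The calls of Gclm were lost without vehicle library 1 or 3 in the IL-10 group (adjusted p = 0.0586 and 0.0552). In the stattic group they were lost without any 1 of the vehicle libraries or stattic library 1 (0.0537 to 0.0661), and the Slc7a11 call there was lost without vehicle library 1 (0.0508).

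The effect of IL-10 on top of hemin was not resolved for any of the 6 genes. IL-10 group over hemin, the log2 changes were 0.66 for Slc7a11 (interval -1.44 to 2.76), 0.53 for Slc3a2 (-0.59 to 1.65), -0.3 for Gclc (-0.87 to 0.28), 0.31 for Gclm (-1.19 to 1.82), 0.15 for Gss (-0.89 to 1.19) and 0.49 for Gsr (-0.53 to 1.51). Each had an adjusted p of 0.999, and the libraries of the groups overlapped for all 6. Of all genes, 3.62% were wholly higher and 5.09% wholly lower. Same-numbered libraries, treated as pairs here, were higher with IL-10 in 3 of 3 pairs for Slc7a11, Slc3a2, Gclm and Gsr, in 2 for Gss and in 1 for Gclc. The IL-10 library was 1.94, 1.2 and 1.45 times its hemin partner in FPKM for Slc7a11, 1.56, 1.15 and 1.43 times for Slc3a2, and 1.14, 1.75 and 1.58 times for Gsr. Of all genes, 19.3% were higher in each of the 3 pairs and 18.2% lower. In edgeR with the replicate block the 6 genes had unadjusted p of 0.129 to 0.582 and adjusted p of 0.864 to 0.937. The interval of Slc7a11 still holds rises and falls of more than 2-fold, whereas that of Gclc does not. Over all genes tested, 0% were called in either direction by edgeR, with 337 genes at an unadjusted p under 0.05, while DESeq2's Wald test called 2 higher and 1 lower and limma-voom called 0. With the replicate block, edgeR called 1 gene higher, not among the 6.

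Stattic on top of hemin and IL-10 gave the same outcome. Stattic group over IL-10 group, the log2 changes were -0.41 for Slc7a11 (interval -2.5 to 1.69), -0.36 for Slc3a2 (-1.49 to 0.76), -0.29 for Gclc (-0.86 to 0.29), -0.32 for Gclm (-1.82 to 1.19), 0.21 for Gss (-0.83 to 1.25) and -0.38 for Gsr (-1.4 to 0.64), with adjusted p of 0.921 to 0.95. Groups overlapped for all 6 genes, where 3.15% of all genes were wholly higher and 2.21% wholly lower, and 0% of all genes were called by edgeR (523 at an unadjusted p under 0.05), DESeq2's Wald test or limma-voom. Same-numbered libraries were not treated as pairs between these groups. The pair counts of the IL-10 group over hemin therefore have no counterpart here. Stattic group over hemin, Gclc had a log2 change of -0.58 (unadjusted p = 0.0488, adjusted p = 1.0), with 309.8 CPM in the stattic group and 463.3 CPM with hemin and overlapping libraries. The other 5 genes lay between -0.01 and 0.36, with unadjusted p of 0.465 to 0.993. None of the 6 genes moved the same way in all 3 same-numbered pairs, where 10.6% of all genes were higher and 9.37% lower in each pair. All 6 overlapped, beside 2.91% of all genes wholly higher and 2.25% wholly lower. edgeR called 0% of all genes there (481 at an unadjusted p under 0.05), limma-voom 0 and DESeq2's Wald test 1 higher, and with the replicate block edgeR called 1 higher, not among the 6.

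Ratios inside a library show how the partners stood to each other. Slc3a2 exceeded Slc7a11 4.51-, 10.4- and 33.5-fold in FPKM in stattic libraries 1, 2 and 3. The ratio was 5.59, 6.22 and 15.8 in the IL-10 group and 6.94, 6.5 and 16.1 with hemin, against 35.9, 23.4 and 28.8 in vehicle. The hemin and IL-10 libraries were all below vehicle in this ratio, and stattic library 3 was within the vehicle range. Stattic library 3 also had the strongest length trend (-0.607). Slc7a11 is the longer transcript, at 9214.46 bases there against 2156.33 for Slc3a2. The part of length in this ratio was not tested. Gclc over Gclm was 0.464, 1.07 and 1.22 in the stattic group, 0.511, 0.577 and 1.63 in the IL-10 group, 0.563, 0.879 and 4.43 with hemin, and 1.12, 1.37 and 1.62 in vehicle. The transcript of Gclc was therefore above that of Gclm in each vehicle library, and below it in libraries 1 and 2 of hemin and of IL-10 and in library 1 of the stattic group. Protein of the subunits was not measured here. In hemin library 3 the ratio was above all others, as Gclc was at its highest and Gclm at its lowest of the hemin-treated libraries.

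**Figure D3:**
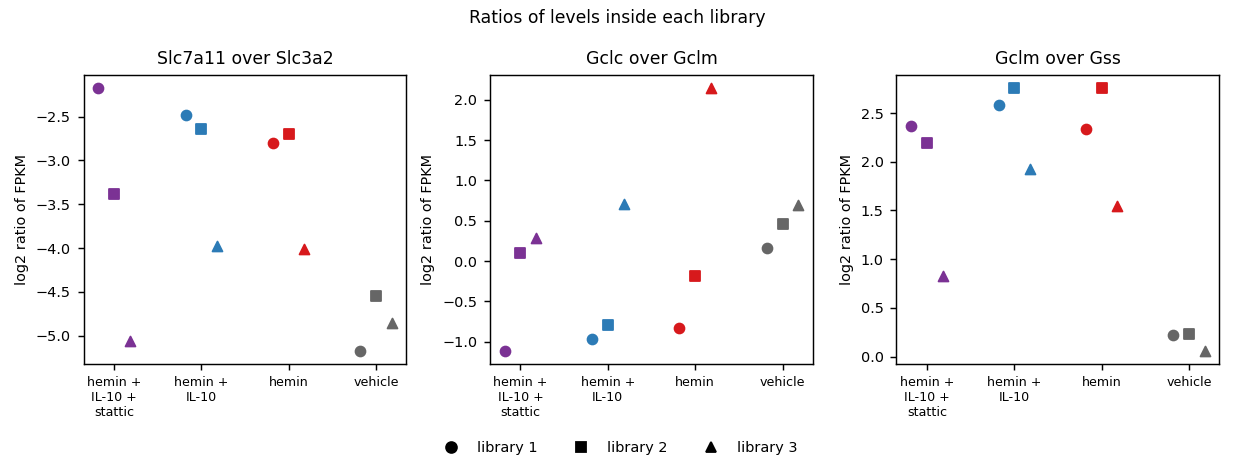
Log2 ratios of FPKM inside each library, by group, for Slc7a11 over Slc3a2, Gclc over Gclm, and Gclm over Gss; symbols mark the library number. Gclm over Gss is above vehicle in all 9 hemin-treated libraries, while Gclc over Gclm falls on both sides of vehicle and reaches 2.15 in hemin library 3.

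In hemin-treated cells the transcripts of both ligase subunits stood further above that of Gss, and that of Gclc further above that of Gsr. Gclc over Gss was 2.18 to 4.88 in the stattic group, 3.06 to 6.24 in the IL-10 group and 2.86 to 13.0 with hemin, against 1.31 to 1.7 in vehicle. Gclm over Gss was 1.78 to 5.16, 3.82 to 6.76 and 2.93 to 6.79 in these 3 groups, against 1.04 to 1.17 in vehicle. Gclc over Gsr was 1.62 to 2.9 in the stattic group, 1.5 to 2.82 in the IL-10 group and 1.65 to 7.76 with hemin, against 0.969 to 1.29 in vehicle. In all 3 ratios each hemin-treated library lay above each vehicle library.

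SLC3A2 is the heavy chain of several light chains, so Slc7a11 was set beside the other 5 that were listed. Slc7a11 held 45.4%, 30.3% and 8.89% of the summed FPKM of the 6 light chains in the stattic group, 37.5%, 40.5% and 13.1% in the IL-10 group, 33.1%, 36.4% and 14.4% with hemin, and 2.93%, 4.1% and 2.98% in vehicle. The share of 8.89% was that of stattic library 3, which had the strongest length trend. The part of length in this share was not tested. Slc7a5 (LAT1), which carries large neutral amino acids, held the largest share in every library, between 48.6% and 76.7%. Of the 5 others, 1 was called higher with hemin and none lower: Slc7a7 (y+LAT1), at 8.93 ± 1.53 CPM with hemin and 1.12 ± 0.337 CPM in vehicle, a log2 change of 2.98 (SE 0.44, adjusted p = 0.00141). Slc7a5 had a log2 change of 1.11 (adjusted p = 0.152) with hemin alone and was called only in the IL-10 group, at 1.68, a call lost without any 1 of 6 libraries and in 5 of 13 other settings. Slc7a8 (LAT2) was at 1.12 (adjusted p = 0.0814) and Slc7a6 (y+LAT2) at -0.04 (adjusted p = 0.927).

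The wider glutathione network was described from 9 lists, with hemin over vehicle as the comparison, the medians to be read against 0.031 over all genes and the counts against the 11.7% of all genes called higher and 9.15% called lower. Of 14 regulators tested, 7 rose and none fell, with a median log2 change of 1.53. Among them were Atf3, a stress-induced transcription factor (7.46, SE 0.66, adjusted p = 5.62e-05), Ddit3 (CHOP), a target of ATF4 (3.55, SE 0.47, adjusted p = 0.00076), and the small MAF genes Maff (4.12, SE 0.3) and Mafk (2.68, SE 0.33). Mafg, the other small MAF gene of the list, was not called, at 33.3 ± 2.28 FPKM with hemin and 19.6 ± 3.0 FPKM in vehicle. Atf4 itself rose by 1.81, the autophagy receptor gene Sqstm1 by 3.58 and Trib3, a pseudokinase that ATF4 and CHOP induce, by 3.53. These 3 were named after their values were seen, and the Trib3 call was lost without any 1 of the vehicle libraries, hemin library 1 or hemin library 2, and in 4 of 13 other settings. Nfe2l2, which encodes NRF2, was at 1.26 (adjusted p = 0.132), Bach1 at 0.57 (adjusted p = 0.417) and Keap1, the NRF2 inhibitor, at -0.38 (adjusted p = 0.425). The transcript level of NRF2 does not measure its activity, which is known to be set largely by protein stability.

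Of 11 tested genes that supply cysteine by other routes, 2 rose and none fell, with a median of 0.2. Cth, which makes cysteine from cystathionine, was at 32.6 ± 19.7 CPM with hemin and 2.7 ± 0.459 CPM in vehicle, a log2 change of 3.59 (SE 0.81, adjusted p = 0.0108). Slc1a5 (ASCT2), a neutral amino acid exchanger, rose by 1.2 (SE 0.29, adjusted p = 0.0142), a call lost without vehicle library 1. Ctns, the lysosomal cystine exporter, was at -0.67 (adjusted p = 0.0997) and Mat2b at 0.58 (adjusted p = 0.0756). Of 10 genes that use cysteine for other ends, 2 rose and 2 fell, with a median of -0.3. Cdo1, which oxidises cysteine, rose by 2.48 (SE 0.55, adjusted p = 0.0102) and Sqor, which oxidises sulfide, by 2.57 (adjusted p = 0.0296). Ado, which oxidises cysteamine, fell by 1.56 (SE 0.22, adjusted p = 0.0011) and Csad, whose enzyme acts on the cysteine sulfinate that CDO1 makes, by 0.79 (adjusted p = 0.0318). The calls of Sqor and Csad were lost without any 1 of the vehicle libraries, hemin library 1 or hemin library 2, and that of Sqor also in 5 of 13 other settings.

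Of 9 tested genes of glutathione breakdown, 2 rose and none fell, with a median of 0.56. Chac1, which cleaves glutathione inside the cell and is a known ATF4 target, was at 60.9 ± 12.0 CPM with hemin and 2.78 ± 1.33 CPM in vehicle, a log2 change of 4.45 (SE 0.38, adjusted p = 4.29e-05), and its call held in each alternative. Anpep, a surface peptidase, was also called, but its mean was only 0.81 FPKM with hemin and 0.0367 FPKM in vehicle. Chac2, the paralog of Chac1, was at 0.56 (adjusted p = 0.278), Ggt7 at 0.77 (adjusted p = 0.188) and Ggct, which cleaves gamma-glutamyl dipeptides, at 0.32 (adjusted p = 0.53), a value that turned to between -0.1 and -0.02 on the FPKM scale or with length offsets. Of 13 glutathione peroxidases, glutaredoxins and related enzymes, Esd alone was called, at 2.03 (SE 0.65, adjusted p = 0.0436). That call was lost without any 1 of 6 libraries and in 7 of 13 other settings, limma-voom, library totals and length offsets among them. Gpx4, the lipid peroxide reductase that restrains ferroptosis, was at 211 ± 28.3 CPM with hemin and 140 ± 1.7 CPM in vehicle, a log2 change of 0.59 (adjusted p = 0.159). Its groups did not overlap, as for the 25.6% of all genes that lay wholly higher. In 13 other settings its change was 0.07 to 0.68, and 3 of them called it.

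Of 20 tested glutathione S-transferases, which couple glutathione to electrophiles, 4 rose and none fell, with a median of 1.22. Gsto1 rose by 1.21 (SE 0.31, adjusted p = 0.0174), a call lost without vehicle library 1 or 3 or hemin library 1 or 2, and with length offsets. The other 3 were called at low levels: Gsta3 (2.6 FPKM with hemin and 0.233 FPKM in vehicle), Gstm4 (2.84 FPKM and 0.753 FPKM) and Gstp2 (5.51 FPKM and 0.243 FPKM). The Gsta3 and Gstp2 calls were each lost without any 1 of several libraries, the vehicle libraries 1 and 2 among them, and in 7 and 3 of 12 other settings. Gstp1 had a log2 change of 1.64 (adjusted p = 0.0951) and Gsta4 of 2.65 (adjusted p = 0.0945). Some genes of the Gsta, Gstm and Gstp families share near-identical sequence, so the counts of those genes are uncertain. Of 13 genes that supply NADPH, which GSR uses, 0 were called by edgeR (2 at an unadjusted p under 0.05), 1 by DESeq2's Wald test and 0 by limma-voom. Those with the smallest adjusted p were Me1 (malic enzyme, 0.92, adjusted p = 0.173), Taldo1 (transaldolase, 0.82, adjusted p = 0.0832), Tkt (transketolase, 0.66, adjusted p = 0.196) and Me3 (0.59, adjusted p = 0.14). Of 11 transporters of glutathione and its conjugates, 2 rose and none fell, with a median of 0.71. Abcc1 (MRP1), which exports them, rose by 1.02 (SE 0.32, adjusted p = 0.0392), a call lost without any 1 of 6 libraries and in 5 of 13 other settings. Abcc2 was called at a mean of 0.153 FPKM with hemin and was taken as 0 in vehicle, where no library lists it, a call lost without any 1 of 5 libraries.

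**Figure D4:**
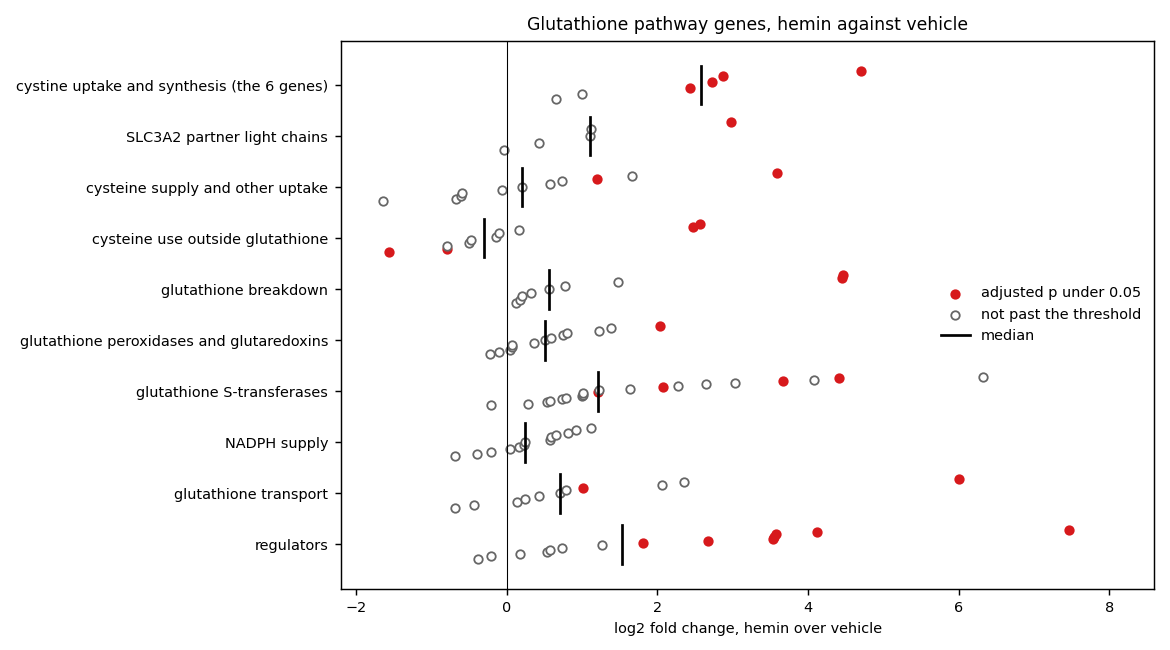
Log2 fold changes, hemin over vehicle, of every tested gene of the 6-gene route and of the 9 lists around it; red points have an adjusted p under 0.05, open points do not, and the black bar is the median of the row. The medians are 2.58 for the 6 genes and 1.53 for the regulators, and the row of NADPH supply has no red point.

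The same lists were counted in the other groups over vehicle. In the stattic group and the IL-10 group the regulators called higher numbered 8 and 9 of 14, cysteine supply 3 and 3 of 11, breakdown 3 and 2 of 9, peroxidases and related enzymes 2 and 1 of 13, S-transferases 6 and 3 of 20, NADPH supply 1 and 1 of 13, and transport 5 and 2 of 11. Over all genes, 14.7% were called higher in the stattic group and 12.1% in the IL-10 group, so that the shares of NADPH supply in both groups and of the peroxidases in the IL-10 group lay below that of all genes. Slc25a10, a mitochondrial carrier, was called lower in both. For cysteine use, 2 rose and 1 fell in the stattic group, and 2 rose and 2 fell in the IL-10 group. No gene of these lists was called between groups that received hemin. Chac1 had log2 changes over vehicle of 4.67 in the stattic group and 4.51 in the IL-10 group, and Cth of 3.49 and 4.15.

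The genes whose pattern over the 12 libraries was most like that of each of the 6 were ranked among 11424 genes by the root mean square difference of log2 CPM, each gene centred on its own mean. Closest to Slc7a11 were Ppp1r15a (GADD34) at 0.54, Trib3 at 0.56 and Ptgr1, which reduces leukotriene and alkenal substrates, at 0.57. Closest to Slc3a2 were Mrnip at 0.24, Eif4ebp1 (4E-BP1, a repressor of translation) at 0.27 and Stc2 at 0.31. Closest to Gclc were D16Ertd472e at 0.17, Cntf at 0.19 and Jade3 at 0.2, and closest to Gclm were Cdkn1a (p21) at 0.18, Htatip2 at 0.25 and Ankrd33b at 0.32. Closest to Gss was G6pdx, the first enzyme of the pentose phosphate route, at 0.17, with Mcfd2 and Zdhhc18 at 0.24. Closest to Gsr were Cat (catalase) at 0.19, Pgrmc1 at 0.2 and Psph at 0.22. Among the 6 themselves, Gss and Gsr were nearest to each other at 0.29, followed by Slc3a2 and Gclm at 0.37. These distances share the libraries and their scaling, and are a description.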

How the data were processed

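RNA-seq of 12 libraries was analysed, 3 in each of 4 groups set by the labels. Per the labels' protocols, second strands carried dUTP and sequencing was of DNA nanoballs. RSEM, Bowtie, Bowtie2, HISAT, TopHat, Cufflinks, StringTie and CASAVA are named, without version or role, per the submitters' processing notes. Genome build and the use of strand in counting are not given in the sources used here. Whether reads of overlapping or antisense genes were kept apart is therefore not known. Per the file headers, the deposited values are expected counts (estimated, partly fractional counts per gene) and FPKM. Files list only genes above 0, and absent genes were taken as 0.

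Expected counts were rounded and tested with edgeR 4.0.16 (R 4.3.3): filterByExpr, TMM factors, a robust quasi-likelihood fit to all 12 libraries with 1 mean per group, and Benjamini-Hochberg adjustment over 13967 genes, called under 0.05. CPM used TMM factors, and FPKM is as deposited. On simulated counts for hemin versus vehicle with 13967 genes, 86 of 100 genes changed by 2 log2 units and 99 of 100 changed by 4 were called, with 10 false calls. Those counts were drawn independently around 1 mean per gene, and only genes with a mean above 5 CPM were changed. They held no length trend and no shared deviations of same-numbered libraries, so these rates need not hold for the data. The genes and lists were chosen with earlier results of these data known. Besides the 6 genes and Hmox1, the text names by rule up to 4 genes per list (smallest adjusted p, at least 5 CPM in 1 group), and the 3 genes most like each of the 6. Other named genes were chosen after their values were seen. Motifs were searched in RefSeq windows (GRCm38.p6). Of the symbols, 99.1% matched the RefSeq gene table.

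The alternatives were DESeq2 1.42.0 size factors and Wald test, library totals, no count filter, limma 3.58.1 (voom, and log2 of FPKM plus 1 or 0.1 with FPKM of at least 1 in 3 libraries, or no filter), only the 2 groups compared, a replicate block, length offsets, and libraries left out. For replicates 1, 2 and 3, deviations from group means correlated between same-numbered libraries at 0.385, 0.171 and 0.622 (IL-10 group and hemin) and at 0.353, 0.399 and 0.16 (stattic group and hemin). All exceeded 0.1, so the numbers were treated as pairing there and not in the other comparisons. This rule uses the same data that are compared. It pairs the IL-10 and stattic groups each with hemin but not with each other, where the correlations were 0.668, -0.057 and 0.485. Even there, not every library correlated best with its own number. IL-10 library 2 correlated at 0.207 with hemin library 1, and hemin library 3 at 0.312 with stattic library 2.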

Additional observations from a re-analysis of the deposited data

How the results depend on the processing

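Slc3a2 and Gclc kept their direction and calls over vehicle in all 3 comparisons under each other setting. Leaving out 1 library gave log2 changes, hemin over vehicle, of 2.46 to 3.09 for Slc3a2, 2.31 to 2.53 for Gclc, 4.37 to 5.2 for Slc7a11 and 2.37 to 3.32 for Gclm. The genes of the 6 called higher over vehicle then numbered 2 to 4 in the stattic group, 3 to 5 in the IL-10 group and 2 to 4 with hemin. limma without a filter left Gclm uncalled in the stattic group (adjusted p = 0.0704) and with hemin (0.0597). The replicate block left 4, 5 and 4 of the 6 called in the stattic group, the IL-10 group and with hemin, and changed no call among them. Where the numbers were treated as pairing, it called 1 gene higher in the IL-10 group over hemin and 1 in the stattic group over hemin, against 0 without it, neither among the 6. In the other comparisons same-numbered libraries share only a number, with at least 1 of 3 correlations under 0.1 (0.203, 0.085 and 0.28 for the stattic group and vehicle, 0.054, 0.201 and 0.382 for the IL-10 group and vehicle, 0.135, 0.064 and 0.31 for hemin and vehicle, 0.668, -0.057 and 0.485 for the stattic and IL-10 groups). Not every library correlated best with its own number, in these comparisons or in those treated as pairing. Over vehicle, the block called 2438 higher and 1984 lower in the stattic group, 2102 and 1827 in the IL-10 group and 2167 and 1833 with hemin. With hemin over vehicle, DESeq2's Wald test called 7 S-transferases, 4 transporters, 4 genes of cysteine supply and 2 partner light chains, where limma-voom called 2, 2, 2 and 1 and edgeR 4, 2, 2 and 1. Counting error is small for the 6 genes, and replicates of a group differed by more than counting noise. Whether depth limits the calls of low genes such as Abcc2, Gsta3 and Gstp2 was not tested.

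Over all genes, 2048 were called higher and 1424 lower in the stattic group over vehicle, 1696 and 1231 in the IL-10 group, and 1639 and 1278 with hemin. Leaving out 1 library gave 916 to 2186 higher and 692 to 1724 lower in the stattic group, 724 to 2403 and 423 to 1824 in the IL-10 group, and 803 to 2287 and 442 to 1969 with hemin. It gave 0 to 1 genes higher for the IL-10 group over hemin and for the stattic group over hemin. With only the 2 groups compared in the fit, 958 and 692 were called in the stattic group, 2339 and 1916 in the IL-10 group, and 2233 and 2113 with hemin. Without hemin library 1 and stattic library 3 together, the IL-10 group had 2572 higher and 1974 lower.

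The split of these calls moved with the scaling. Higher genes were 59.0%, 57.9% and 56.2% of those called in the stattic group, the IL-10 group and with hemin. With library totals the shares were 39.0% (1414 higher and 2208 lower), 44.2% (1317 and 1665) and 46.7% (1395 and 1593), and the median of all genes was -0.14, -0.13 and -0.07 in place of 0.1, 0.0 and 0.03. With length offsets they were 48.8% (1646 and 1728), 48.7% (1813 and 1912) and 42.9% (1622 and 2156). limma on log2(FPKM + 1) called 946 and 2358 in the stattic group, 895 and 1724 in the IL-10 group, and 955 and 1650 with hemin. With FPKM + 0.1 it called 1118 and 2319, 1027 and 1600, and 1038 and 1520, and without a filter 849 and 2152, 834 and 1547, and 1052 and 1526. For the IL-10 group over hemin, 1 gene was called higher without a count filter and with length offsets, and DESeq2's Wald test called 2 higher and 1 lower. For the stattic group over hemin, 1 was called higher without a count filter and by DESeq2. The cause of these shifts was not tested. With library totals, Slc7a11, Slc3a2, Gclc and Gclm stayed called over vehicle, with log2 changes of 4.58, 2.6, 2.34 and 2.74 for hemin.

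The changes that turned sign were uncalled ones. Leaving out 1 library, the IL-10 group over hemin ranged from -0.04 to 1.16 for Slc7a11, -0.14 to 0.81 for Gclm, -0.22 to 0.71 for Gss and -0.29 to 0.67 for Hmox1. The stattic group over the IL-10 group ranged from -1.91 to 0.3 for Slc7a11, -0.79 to 0.15 for Slc3a2, -1.35 to 0.08 for Gclm, -0.3 to 0.58 for Gss and -1.06 to 0.24 for Hmox1. The stattic group over hemin ranged from -1.25 to 0.79 for Slc7a11, -0.26 to 0.43 for Slc3a2, -1.03 to 0.49 for Gclm, -0.14 to 0.9 for Gss, -0.43 to 0.66 for Gsr and -0.81 to 0.31 for Hmox1. Slc7a6 with hemin over vehicle ranged from -0.17 to 0.05. Without hemin library 1 and stattic library 3, the stattic group over the IL-10 group was at 0.09 for Slc7a11 and 0.05 for Gclm, and over hemin at 0.88 for Gclm and 0.61 for Hmox1. Without the 4 libraries numbered 3, Gss was at -0.01 for the stattic group over the IL-10 group and Gsr at -0.06 for the stattic group over hemin. The stattic group over hemin was at -0.11 for Slc7a11 with limma-voom, and at -0.21, -0.23 and -0.21 with limma on FPKM + 1, FPKM + 0.1 and FPKM + 1 without a filter. Gclm there was at 0.0 without a count filter and 0.06 with length offsets. Hemin over vehicle, those 3 limma settings gave -0.02, -0.03 and -0.02 for Ggct and -0.06, -0.08 and -0.06 for Slc25a40, and length offsets gave -0.1 for Ggct. The cause was not tested.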
